A study of Caenorhabditis elegans with 6 samples.

Results

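Most autosomal peaks of open chromatin in these worm nuclei had their summit just outside the end of a protein-coding gene. ATAC-seq uses the Tn5 transposase to cut and tag DNA that nucleosomes leave free, and the authors deposited 1 peak list for each of 2 groups of Caenorhabditis elegans nuclei. A peak was taken here if it lay on chromosome I, II, III, IV or V and if its summit, the base with the most reads, fell outside every protein-coding gene of the assembly WBcel235 but within 1000 bp of a gene end. This rule uses positions only. It chose 971 of the 2313 peaks of the neuronal list and 1165 of the 2683 peaks of the total list. Among autosomal peaks these were 971 of 1842 (52.7%, exact binomial 95% interval 50.4% to 55.0%) in the neuronal list and 1165 of 2171 (53.7%, 51.5% to 55.8%) in the total list. By the midpoint of the peak in place of its summit, the shares were 46.7% in the neuronal list and 48.5% in the total list. All intervals of shares below are of this kind, limits given where nothing was counted stand for 3 counts out of the total, and both cover counting error only.

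Both groups are nuclei of the strain OH11061, whose genotype is given as otIs381, a transgene that marks neuronal nuclei with GFP. Animals were of mixed stages and grew at 20 °C on agar with OP50 bacteria. The neuronal group holds 3 samples of nuclei sorted as positive for GFP and for the DNA stain DAPI, and the total group 3 samples of nuclei sorted for DAPI alone, so it contains GFP nuclei as well. Each sample had 50000 nuclei, and the labels do not say whether samples came from separate cultures. Each list pools its group, with no value per sample and no depth per sample in the sources used here. There is therefore no spread between replicates and no test below, and peaks of 1 list are not replicates of its group. In pooled nuclei a site open in few nuclei and a site less open in all of them cannot be told apart. Absence of a peak does not show that the DNA was closed.

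Worm genes lie close together, and most of their promoters sit in the short gaps between them. A gap between genes transcribed away from each other can hold the promoters of both, while genes of an operon share the promoter in front of its first gene and are parted by very short gaps. Nucleosomes are commonly displaced at active promoters, which is why Tn5 can reach them. The gene table used here gives the start and end of each gene but not its strand, so a gene end below is either the 5′ or the 3′ end, and promoters were not told from sites behind genes.

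The sequence just outside gene ends was the most densely covered. It makes up 15058.9 kb, or 18.2%, of the autosomal sequence between the first and the last gene of each chromosome, yet it held 64.5 summits per Mb in the neuronal list and 77.4 per Mb in the total list. Inside genes, which make up 63.6% of that sequence, there were 10.2 summits per Mb in the neuronal list and 11.7 per Mb in the total list. Farther than 1000 bp from any gene the values were 22.5 per Mb in the neuronal list and 26.1 per Mb in the total list. By chromosome the share of autosomal peaks just outside gene ends ran from 50.5% (IV) to 55.4% (V) in the neuronal list and from 51.5% (II) to 57.1% (V) in the total list. Set against the number of genes the chromosomes differed more. Chromosome III had 77.2 such peaks per 1000 genes in the neuronal list and 94.6 in the total list, and chromosome V, the most gene-rich, had the fewest, 37.2 in the neuronal list and 44.8 in the total list.

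Summits did not lie at the gene end itself but a short way outside it. The median distance was 227 bp in the neuronal list (quartiles 134 to 401.5 bp, range 3 to 991 bp) and 220 bp in the total list (128 to 388 bp, range 1 to 994 bp). Per Mb of sequence at a given distance, the neuronal list had 46.0 summits at 1 to 50 bp, 100.9 at 101 to 150 bp, 128 at 151 to 200 bp and 119.1 at 201 to 250 bp. The density was lower again beyond, with 66.6 per Mb at 301 to 400 bp and 34.9 per Mb at 501 to 600 bp. The total list had the same form, with 62.7 per Mb at 1 to 50 bp, 150.0 per Mb at 151 to 200 bp and 38.1 per Mb at 501 to 600 bp. From 501 to 1000 bp the density varied without a clear trend, between 26.9 and 41.4 per Mb in 100 bp steps in the neuronal list. It showed no drop at the limit of the rule, with 35.4 per Mb at 901 to 1000 bp and 33.8 per Mb at 1001 to 1250 bp in the neuronal list. In the total list the values were 36.6 per Mb at 901 to 1000 bp and 41.4 per Mb at 1001 to 1250 bp. At 1501 to 2000 bp the density was lower, 24.9 per Mb in the neuronal list and 27.3 per Mb in the total list. On the gene side of the end the density dropped at once, to 20.9 per Mb in the neuronal list and 27.8 per Mb in the total list over the first 50 bp inside.

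**Figure D1:**
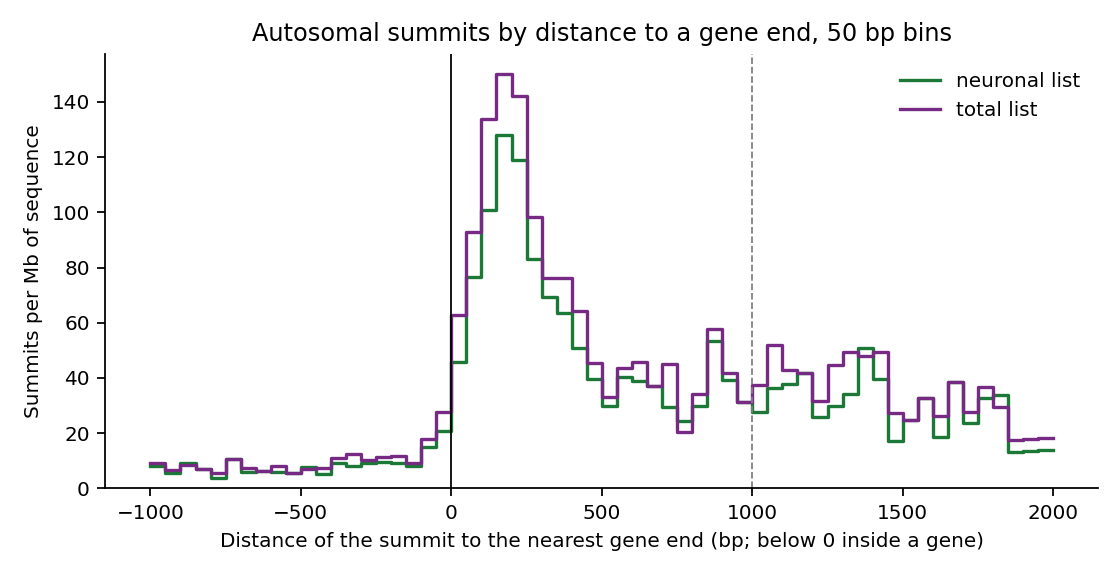
Summits per Mb of autosomal sequence (y axis) in 50 bp bins of the distance to the nearest gene end (x axis, in bp; below 0 is inside a gene) for the neuronal and the total list. Both curves are highest at 151 to 200 bp outside the end, at 128 per Mb in the neuronal list and 150.0 per Mb in the total list, and the dashed line marks the limit of 1000 bp.

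The members at the edge of the rule and the peaks just beyond it had similar values. The farthest inside the limit in the neuronal list were next to gbas-1 (991 bp, fold 9.32), lin-23, which encodes an F-box protein that limits cell division (984 bp, fold 14.3), and otub-2 (979 bp, fold 14.5). Fold is the authors' own value, the reads at the summit relative to local background, and is used only within a list. Just past the limit lay the peaks of sorf-2 (1006 bp, fold 9.06), jmjd-2, a histone demethylase gene (1007 bp, fold 13.6), and T28F4.1 (1019 bp, fold 12.9). In the total list the edge ran through otub-2 itself, whose summit was at 1002 bp there and so fell outside. At the other extreme, 164 neuronal-list peaks (16.9%) and 209 total-list peaks (17.9%) had their summit within 100 bp of the end, among them that of ndk-1 at 7 bp in the neuronal list.

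Although every summit was outside genes, most of the peaks were not. A gene end lay within the peak for 748 of the 971 neuronal-list peaks (77.0%) and 928 of the 1165 total-list peaks (79.7%), and at least 2 gene ends for 324 (33.4%) in the neuronal list and 443 (38.03%) in the total list. Peaks that lay wholly outside genes numbered 223 (22.97%) in the neuronal list and 237 (20.3%) in the total list.

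As a group, peaks just outside gene ends were wider than other autosomal peaks. Their median fold was lower than far from genes and close to that inside genes. Their median width was 911 bp in the neuronal list (quartiles 687 to 1270.5 bp, range 333 to 4003 bp), against 782 bp inside genes and 699 bp far from genes. In the total list the medians were 946 bp just outside ends (quartiles 718 to 1284 bp, range 150 to 3233 bp), 772 bp inside genes and 685 bp far from genes. A width of 1400 bp or more was reached by 180 of the neuronal-list peaks (18.5%) and 210 of the total-list peaks (18.03%). Of the peaks inside genes, 9.01% reached it in the neuronal list and 9.11% in the total list, and of those far from genes 3.85% in the neuronal list and 5.12% in the total list. The median fold went the other way. It was 9.89 in the neuronal list (quartiles 8.25 to 12.4, range 4.51 to 51.5), with 10.4 inside genes and 11.2 far from genes. The total list had 10.1 (quartiles 8.37 to 12.5, range 1.49 to 51.9), with 10.4 inside genes and 11.2 far from genes. The 95% intervals of the median fold, taken from ranked values, overlap between peaks just outside ends and inside genes. They are 9.70 to 10.2 and 10.05 to 10.7 in the neuronal list, and 9.96 to 10.3 and 9.96 to 10.7 in the total list. Far from genes they lie higher, at 10.7 to 11.6 in the neuronal list and 10.7 to 11.8 in the total list.

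**Figure D2:**
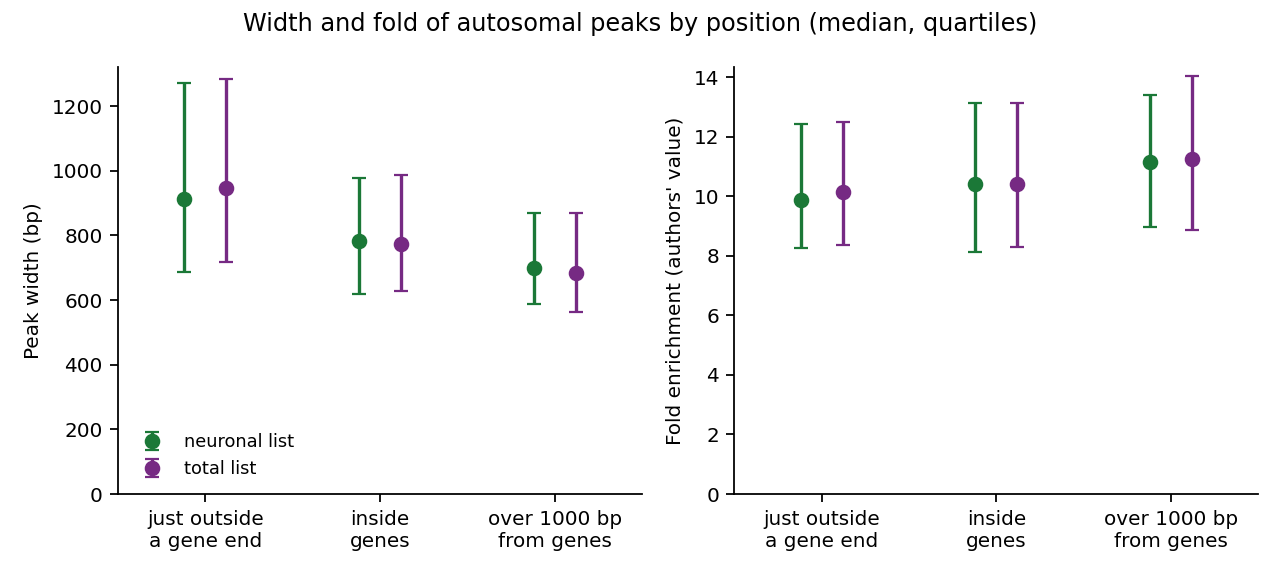
Width in bp (left) and the authors' fold enrichment (right) of autosomal peaks by position, for the neuronal and the total list; points are medians and bars run between the quartiles. Median width just outside gene ends is 911 bp in the neuronal list and 946 bp in the total list. Far from genes it is 699 bp in the neuronal list and 685 bp in the total list. Median fold is lowest just outside ends, though close to that inside genes.

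Under default formulas of the peak caller MACS2, fold and p-value together give back the reads over the summit and the local background. The median of the reads over the summit was 1834 just outside ends, 2022 inside genes and 2100 far from genes in the neuronal list, where the median background was 189, 195 and 193. In the total list the reads were 1145, 1273 and 1334, and the background 114, 121 and 119.1. Reads at the summit were thus fewest outside gene ends, and the background there was the lowest too, by a smaller proportion. Wide peaks did not have high folds here. Ordered by width in 4 equal parts from narrow to wide, the median folds of the neuronal list were 9.73, 11.3, 10.2 and 9.14, and those of the total list 10.2, 11.02, 10.5 and 9.35. As a description across peaks, the Spearman correlation of width and fold was -0.10 over the 971 neuronal-list peaks and -0.08 over the 1165 total-list peaks, and it was positive for peaks inside genes (0.12 in the neuronal list and 0.14 in the total list) and far from genes (0.15 in the neuronal list and 0.28 in the total list). All these values share the depth of their list.

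Most of these peaks lay between close neighbours, with a gene end within 1000 bp on each side. There were 529 such sites in the neuronal list (54.5%, interval 51.3% to 57.6%) and 669 in the total list (57.4%, 54.5% to 60.3%). Their gaps had a median length of 609 bp in the neuronal list and 600.0 bp in the total list, with a shortest of 78 bp and a longest of 1858 bp in both. Such sites were wider and of lower fold than those with only 1 close end. In the neuronal list the median width was 1046 bp between close genes and 784 bp beside 1 close end, and the median fold was 9.49 between close genes and 10.7 beside 1 close end. In the total list the median width was 1085 bp between close genes and 789 bp beside 1 close end, and the median fold 9.57 and 10.8 for the same kinds of site. A peak that covered at least 2 gene ends was the usual case between close genes, at 57.8% in the neuronal list and 62.3% in the total list, and rare beside 1 close end, at 4.07% in the neuronal list and 5.24% in the total list. This contrast is largely built into the grouping, since beside 1 close end the neighbour on the other side is over 1000 bp from the summit. The reads over the summit also differed, with medians in the neuronal list of 1779 between close genes and 1927 beside 1 close end, and in the total list of 1099 between close genes and 1210 beside 1 close end.

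**Figure D3:**
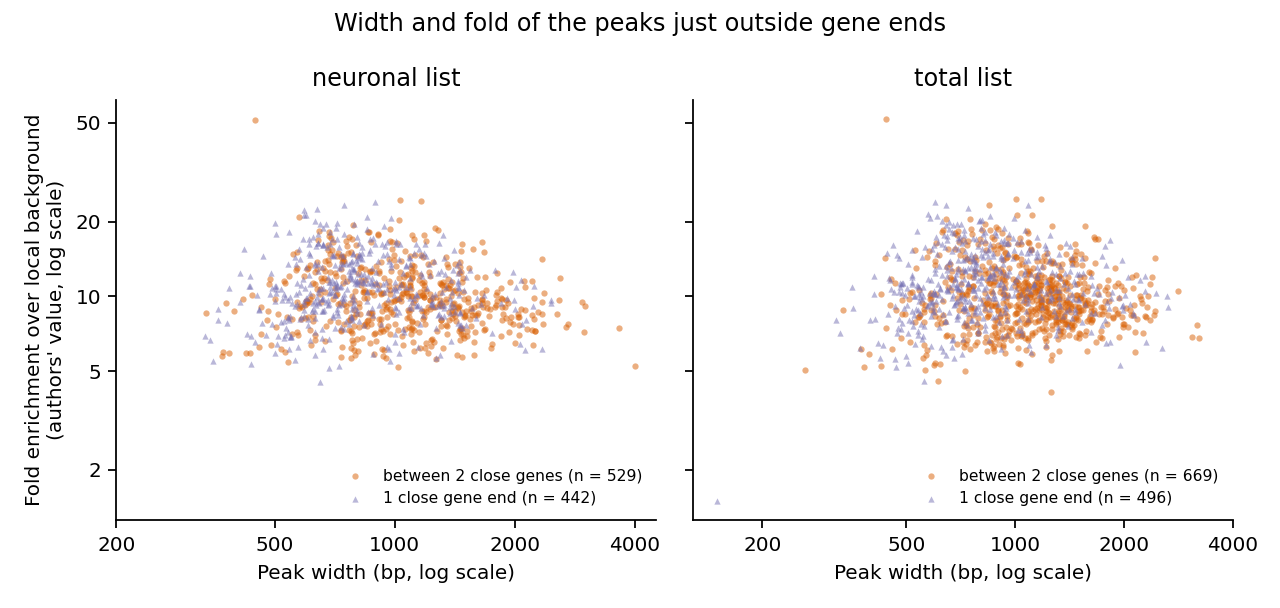
Each point is 1 peak just outside a gene end, by its width (x axis, bp, log scale) and the authors' fold enrichment (y axis, log scale), in the neuronal list (left) and the total list (right). Circles mark peaks between 2 close genes (529 in the neuronal list and 669 in the total list), which reach farther to the right than the triangles of peaks with 1 close end (442 in the neuronal list and 496 in the total list). The single point above 50 is that of ric-19.

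Counted by gap, the shortest gaps between genes seldom held a summit, but they also offer the least sequence. Of the 2533 gaps of 1 to 200 bp between autosomal genes, 13 had such a summit in the neuronal list (0.513%) and 21 in the total list (0.829%). Of the 2687 gaps of 201 to 500 bp, 178 (6.62%) had one in the neuronal list and 224 (8.34%) in the total list. The share was highest for gaps of 1001 to 2000 bp, at 215 of 2496 (8.61%) in the neuronal list and 254 (10.2%) in the total list. Over all 14821 gaps it was 6.44% in the neuronal list and 7.73% in the total list, and only 16 gaps in the neuronal list and 19 in the total list held 2 such summits. Per Mb of sequence within 1000 bp of an end, gaps of 201 to 500 bp were the densest, with 193 summits in the neuronal list and 243 in the total list, against 107 in the neuronal list and 135 in the total list for gaps of 501 to 1000 bp.

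**Figure D4:**
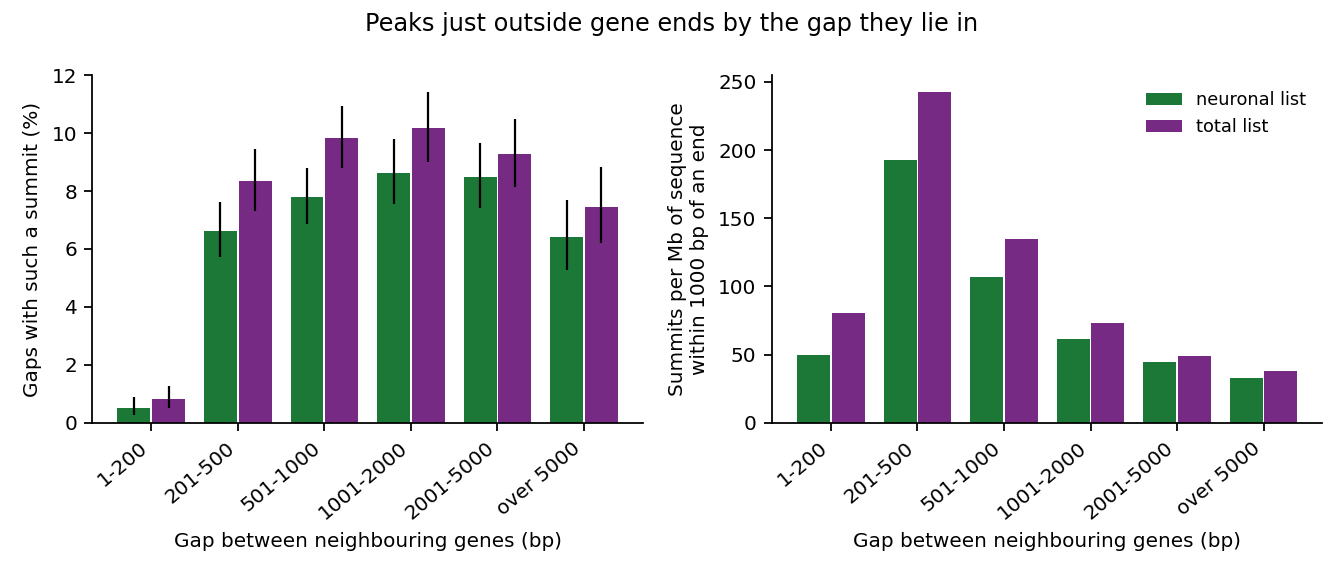
Share of the gaps between neighbouring autosomal genes that hold a summit within 1000 bp of an end (left, in percent, with exact binomial 95% intervals) and summits per Mb of such sequence (right), by gap length in bp. Bars are the neuronal list and, to the right of it, the total list. The share is lowest for gaps of 1 to 200 bp, at 0.513% in the neuronal list and 0.829% in the total list. Per Mb these gaps have 49.9 summits in the neuronal list and 80.7 in the total list.

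A gene was counted with a peak if its end was the nearest to the summit. This gave 961 of 17241 autosomal protein-coding genes in the neuronal list, or 5.57%, and 1147 in the total list, or 6.65%. Counting every gene with any end within 1000 bp of such a summit gave 8.57% in the neuronal list and 10.4% in the total list. These 4 shares are the background for the classes below, which group genes by their symbols. Across both lists 1205 genes had a peak and 903 of them had it in both. The genes with a peak were longer, with median spans of 2774 bp in the neuronal list and 2632 bp in the total list against 1946 bp over all autosomal protein-coding genes. Fewer of these genes had only a sequence name as their symbol, 31.3% in the neuronal list and 30.4% in the total list against 42.7% of all.

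Genes of the cytosolic ribosome, the site of protein synthesis, had the highest share with such a peak of the 32 classes. Of 76 autosomal genes, 26 had one in the neuronal list (34.2%, interval 23.7% to 46.0%) and 29 in the total list (38.2%, 27.2% to 50.02%). With any end counted, the numbers were 48 (63.2%) in the neuronal list and 53 (69.7%) in the total list. All 26 genes of the neuronal list had their peak in the total list as well, and the other 3 of the 29 in the total list had no overlapping peak in the neuronal list, against 17.4% of all total-list peaks. They were rpl-19 (fold 8.75), rpl-13 (7.08) and rpl-27A (6.25), all for proteins of the large subunit. Their peaks were wide and of low fold. The median width was 1210.5 bp in the neuronal list and 1441 bp in the total list, and the median fold 8.79 in both, below the medians of all the peaks just outside gene ends. Single values show how wide the class spreads. The peak of rpl-39 ran from 7774143 to 7777142 on chromosome V in the neuronal list, 3000 bp with fold 9.12, and was 2232 bp wide with fold 9.72 in the total list. It spans the gap of 498 bp to fau-1. The highest fold of the class was that of rps-9, for a protein of the small subunit, at 11.9 in the neuronal list and 13.6 in the total list, in a gap of 587 bp to lsm-1. The lowest was that of rpl-11.1, at fold 5.76 in the neuronal list and 6.16 in the total list, with a width of only 369 bp in the neuronal list and 376 bp in the total list.

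None of the summits next to ribosomal protein genes lay at the gene end itself. Within 100 bp lay 0 of the 26 in the neuronal list and 0 of the 29 in the total list. Over all the peaks just outside ends the shares were 16.9% in the neuronal list and 17.9% in the total list. At 101 to 300 bp lay 16 (61.5%) in the neuronal list and 19 (65.5%) in the total list. Over all these peaks that share was 46.8% in the neuronal list and 47.6% in the total list. Between close genes were 21 of the 26 in the neuronal list and 24 of the 29 in the total list, so that many stand also beside a gene of another kind. Of all the peaks just outside ends, 54.5% in the neuronal list and 57.4% in the total list lay between close genes. Examples are rps-4 with deb-1, which encodes vinculin of muscle attachments (gap 532 bp, fold 8.80 in the neuronal list and 9.27 in the total list), and rpl-36A with nuo-1, for a subunit of respiratory complex I (gap 632 bp, fold 9.91 in the neuronal list and 10.7 in the total list). In the gap between rpl-41.1 and rpl-41.2 and in that between rps-10 and rpl-24 both neighbours are ribosomal protein genes.

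Some classes of energy metabolism and of gene expression also had shares above the background. Genes of oxidative phosphorylation had a nearest end in 11 of 64 cases in the neuronal list (17.2%, interval 8.90% to 28.7%) and in 16 in the total list (interval 15.02% to 37.4%). The highest folds were those of ndub-8 (15.5 in the neuronal list and 14.3 in the total list) and nduf-9 (13.2 in the neuronal list and 16.6 in the total list), both named as subunits of complex I. In the total list 6 of the 16 had no overlapping peak in the neuronal list, against 20.5% of all peaks just outside ends and 17.4% of all peaks of that list. They were sdhd-1 of complex II (fold 9.11), nduv-2 (7.92), the ATP synthase genes atp-3 (7.91) and atp-1 (7.70), ndua-13 (6.47) and ndub-3 (6.13), and all 6 lay in gaps of 189 to 479 bp. Of the 11 in the neuronal list, nduf-7 (fold 5.92) had no partner, against 4.11% of all peaks of that list. The nuclear pore and import genes had 7 of 37 in each list, with ran-4 highest (fold 14.4 in the neuronal list). The genes of RNA polymerase II, Mediator and TFIID, which start messenger RNA synthesis, had 7 of 51 in the neuronal list and 9 in the total list, and the splicing factors 7 of 55 in the neuronal list and 8 in the total list. The intervals of the splicing factors, with lower bounds of 5.27% in the neuronal list and 6.50% in the total list, include the background. The same holds for the translation factors, with 4 of 38 in the neuronal list and 5 in the total list, for the tRNA synthetases, with 3 of 33 in the neuronal list and 5 in the total list, and for the mitochondrial ribosomal proteins, with 7 of 71 in the neuronal list and 9 in the total list. All 7 splicing factor peaks of the neuronal list and all 8 of the total list lay between close genes, among them that of rsp-2 and rsp-1, SR-type splicing factors in 1 gap of 406 bp (fold 9.06 and width 1893 bp in the neuronal list).

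Protein quality control showed a range of forms. Of 56 genes for heat shock proteins, J-domain proteins and chaperonins, 9 had a peak in the neuronal list (interval 7.62% to 28.3%) and 8 in the total list (6.38% to 26.2%). Only the interval of the total list includes its background. Heat-inducible hsp-16 genes are known to lie in pairs read away from each other, and summits lay in the short gaps of 2 pairs of neighbours with such names. That between hsp-16.2 and hsp-16.41 (gap 220 bp) had fold 12.6 in the neuronal list and 12.9 in the total list. That between hsp-16.20 and hsp-16.21 (gap 181 bp) had fold 12.5 in the neuronal list and 12.4 in the total list, and its summit also lay inside the small nuclear RNA gene F08H9.10. By contrast hsp-110, for a large cytosolic chaperone, had the widest of all the peaks, 4003 bp from 8443612 to 8447614 on chromosome III, with a fold of only 5.25. It filled the gap of 443 bp to the proteasome gene rpn-3 and more, and it was in the neuronal list alone. The ubiquitin system had 7 of 46 genes in the neuronal list (interval 6.34% to 28.9%) and 8 in the total list (7.82% to 31.4%), above the background of each list. The proteasome had 3 of 33 in the neuronal list (1.92% to 24.3%) and 5 in the total list (5.11% to 31.9%), with intervals that include the background.

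Histone genes, many of them in pairs that share a short gap, had 7 of 75 in each list. The interval, 3.84% to 18.3%, includes the background of both lists. In the neuronal list these included the gaps of his-61 and his-62 (327 bp, fold 9.05), of his-3 and his-4 (292 bp, 8.27), of his-67 and his-68 (368 bp, 8.13) and of his-59 and his-60 (256 bp, 5.60). The total list had the first 3 of these at folds of 8.37, 8.39 and 7.56. Histone genes have near-identical copies, so the source of these reads is uncertain. The highest fold of the class, 16.4 in the neuronal list and 16.5 in the total list next to his-42, had its summit inside F08G2.10, a small nuclear RNA gene.

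Genes for transcription factors had shares near the background or with intervals that include it. Nuclear hormone receptors, the largest family of transcription factors in this worm, had 15 of 246 in the neuronal list (6.10%) and 18 in the total list (7.32%). Their summits lay close to the end more often, within 50 bp for 6 of 15 in the neuronal list and 8 of 18 in the total list, against 66 of 971 (6.80%) over all the peaks of the neuronal list and 90 of 1165 (7.73%) over those of the total list. Highest was nhr-102 (fold 17.2 in the neuronal list and 18.4 in the total list, 130 bp from the end). Homeobox genes had 4 of 58 in each list, ceh-100, ceh-83, ceh-2 and ceh-20, the last a cofactor of Hox proteins (fold 10.0 in the neuronal list and 867 bp from the end). The bHLH and bZIP factors had 4 of 35 in each list, including hlh-30, which acts in autophagy and lysosome genes (fold 7.81 in the neuronal list). GATA factors had 0 of 5 in both. G protein signalling had 4 of 24 in each list, among them egl-30, the Gq alpha subunit, whose peak shares a gap of 222 bp with rpl-27 (fold 5.68 in the neuronal list and 5.05 in the total list).

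Some large gene families were seldom next to these peaks. Chemoreceptor genes, the seven-transmembrane receptors of sensory neurons, had 14 of 1323 in the neuronal list (1.06%, interval 0.58% to 1.77%) and 15 in the total list (1.13%, 0.636% to 1.86%). F-box genes had 4 of 305 in the neuronal list and 5 in the total list, collagens of the cuticle 2 of 139 in the neuronal list and 3 in the total list, and C-type lectins 6 of 236 in the neuronal list and 7 in the total list. The intervals of these 3 classes lie below the background of each list. The UDP-glucuronosyltransferases, which couple sugars to foreign compounds, had 0 of 63 in each list. A count of 0 of 63 allows a share of up to 4.76% by the limit of 3 counts, but the upper bound of the exact interval, 5.69%, includes the background of the neuronal list. The shares of ion channel genes, 4 of 118 in each list (interval 0.931% to 8.45%), and of neuropeptide genes, 5 of 110 in each list (1.49% to 10.3%), have intervals that include the background. Among the neuropeptide genes were nlp-4 (fold 16.2 in both) and nlp-40, an intestinal signal of the defecation rhythm (fold 7.57 in the neuronal list and 8.11 in the total list). The peak of ins-13, an insulin-like gene, had fold 17.9 in the neuronal list and 19.5 in the total list at 970 bp, and a second peak nearer the same end had fold 6.93 in the neuronal list.

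The few peaks at chemoreceptor genes differed in form from those at ribosomal protein genes. Their median fold was 15.7 in the neuronal list and 15.8 in the total list, and 12 of 14 in the neuronal list and 14 of 15 in the total list were above the median of all these peaks. Their median width was 660.5 bp in the neuronal list and 603 bp in the total list, and none reached 1400 bp in either list, against 12 of 26 in the neuronal list and 15 of 29 in the total list at ribosomal protein genes. Only 2 in each list lay between close genes. The highest was srw-63 (fold 21.2 in the neuronal list and 21.5 in the total list, 141 bp from the end), then srx-88 (20.8 in the neuronal list and 21.1 in the total list) and srh-63 (19.8 in the neuronal list and 20.3 in the total list). Beside this stands another measure. The summit lay inside a transfer RNA gene for 3 of the 14 in the neuronal list and 3 of the 15 in the total list, those next to srlf-32, srz-25 and srz-58, and inside the small nuclear RNA gene Y54G9A.8 for that next to sre-46. None of the ribosomal summits lay in a transfer RNA or small nuclear RNA gene. Some of them, such as those next to rpl-39 and rps-13, lay inside genes listed only as non-coding RNA. The summit next to sre-46 did so too. What part any of these RNA genes have in the folds was not tested.

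**Figure D5:**
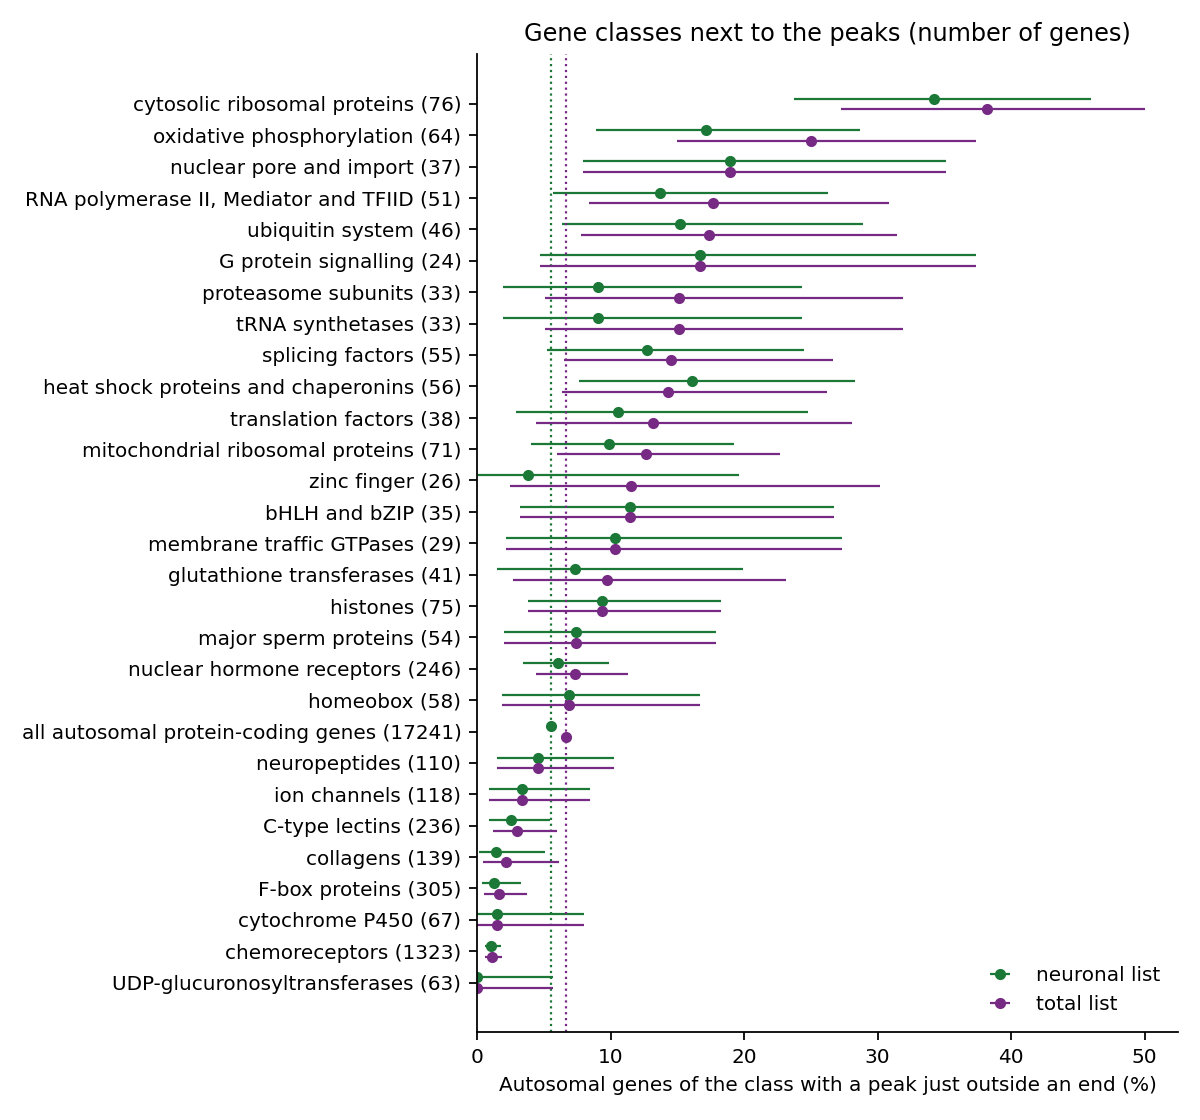
Share of the autosomal genes of each class (number of genes in brackets) that have the nearest end to a peak just outside gene ends, in percent with exact binomial 95% intervals, for the neuronal list and, below it, the total list; dotted lines mark all autosomal protein-coding genes, at 5.57% for the neuronal list and 6.65% for the total list. Classes of at least 20 genes are shown. Cytosolic ribosomal proteins reach 34.2% in the neuronal list and 38.2% in the total list, and chemoreceptors 1.06% in the neuronal list and 1.13% in the total list.

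The sites of highest fold were mostly the same in both lists, and 9 of the 10 highest genes were shared. First was ric-19, a gene for a protein of dense-core vesicle maturation that is active across the nervous system, with 51.5 in the neuronal list and 51.9 in the total list. Its promoter drives the sorting reporter, so reads of the transgene and of the locus cannot be told apart. Others among the 10 highest of both lists were swsn-1, a chromatin remodelling subunit of the SWI/SNF complex (24.6 in the neuronal list and 24.7 in the total list, in a gap of 1325 bp to mdt-17). They also included tim-1, a homologue of the clock protein Timeless (24.3 in the neuronal list and 24.8 in the total list), bed-1 (23.9 in the neuronal list and 23.3 in the total list) and lin-40, a subunit of the NuRD complex (22.2 in the neuronal list and 23.9 in the total list). Of the 100 highest, 36 in each list lay over 500 bp from the end, against 18.5% of the neuronal-list peaks and 17.1% of the total-list peaks as a whole, and 41 in each list lay between close genes. None of these 100 had a ribosomal protein gene end within 1000 bp in either list.

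The 100 widest peaks were another set. They reached at least 1608 bp in the neuronal list and 1667 bp in the total list, and 79 of them in the neuronal list and 67 in the total list lay between close genes. A ribosomal protein gene end lay within 1000 bp of 19 in the neuronal list and 23 in the total list, against 4.84% of all the peaks of the neuronal list and 4.38% of those of the total list. After hsp-110, the widest of the neuronal list stretched over the gap of fcho-1 and vig-1 (3662 bp, fold 7.44). The widest of the total list lay over the gaps of wwp-1, a ubiquitin ligase gene, and icd-2 (3233 bp, fold 6.79), of C49H3.12 and rps-2 (3183 bp, fold 7.68) and of C39F7.5 and rab-1, for a GTPase of transport from the endoplasmic reticulum (3078 bp, fold 6.88). Among the peaks just outside gene ends, the lowest fold of the total list was 1.49, over 150 bp next to hgap-1. It was the only one of these peaks under 2 in either list.

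A few genes had more than 1 such peak. With 2 peaks each there were 10 genes in the neuronal list and 18 in the total list. In the neuronal list those with a peak outside each end included pat-4, for integrin-linked kinase of muscle attachments (folds 8.12 and 13.1), sys-1, a beta-catenin (7.74 and 10.8), and hmg-1.1, a chromatin protein gene (7.71 and 6.22).

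Nearly all the peaks of the neuronal list were found again in the total list, the longer of the lists. Of the 971, 928 overlapped a total-list peak (95.6%, interval 94.1% to 96.8%), and 43 did not (4.43%, 3.22% to 5.92%). Over all 2313 neuronal-list peaks the share without a partner was 4.11%. Of the 1165 of the total list, 239 had no neuronal-list partner (20.5%, 18.2% to 22.9%), against 17.4% of all 2683. Among autosomal peaks only, the share without a partner was 80 of 1842 (4.34%) in the neuronal list and 410 of 2171 (18.9%) in the total list. The share of the neuronal list was near both of its backgrounds. For the total list the interval lies above the 17.4% of all peaks but includes the 18.9% of autosomal peaks. With equal numbers of peaks taken from each list the shares found again were 91.7% in the neuronal list and 89.4% in the total list. Where peaks matched one to one, in 918 cases, the summit was at the same base in 480 and within 10 bp in 798, and 909 pairs had the same nearest gene.

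Among peaks of the total list, those between close genes were without a partner more often, 161 of 669 (24.1%, interval 20.9% to 27.5%) against 78 of 496 beside 1 close end (15.7%, 12.6% to 19.2%). In the neuronal list the shares were alike, 24 of 529 between close genes (4.54%) and 19 of 442 beside 1 close end (4.30%). Peaks without a partner were weak. Their median fold was 7.17 in the neuronal list and 8.17 in the total list, against 10.1 in the neuronal list and 10.8 in the total list for those with a partner. The median of the reads over the summit was 1233 without and 1863.5 with a partner in the neuronal list, and 809 without and 1262.5 with a partner in the total list. Their median width was not smaller, with 948 bp without and 909.5 bp with a partner in the neuronal list, and 1020.0 bp without and 933.5 bp with a partner in the total list. By the authors' p-value 40 of the 43 in the neuronal list and 180 of the 239 in the total list were in the weakest 20% of their list.

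The highest fold among neuronal-list peaks without a partner was that next to F16G10.6 (12.4, 835 bp from the end), then hum-5, a myosin gene (9.86), Y57G11C.8 (9.59), the F-box gene fbxa-63 (9.43) and the lipase-related gene lips-7 (9.38). The summit of the peak of Y57G11C.8 lay inside a small nucleolar RNA gene, Y57G11C.1145. In the total list the highest were unc-36, a calcium channel subunit gene (12.8), the G protein regulator gene rgs-1 (12.4), lron-8 (11.8), Y53G8AR.8 (11.4) and fbxo-11.2 (11.3, with its summit 1 bp outside the gene).

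The share of pan-neuronal genes next to these peaks was 20% in the neuronal list and 32% in the total list, so it was not higher in the neuronal list. Autosomal genes as a whole had 5.57% in the neuronal list and 6.65% in the total list. In the neuronal list the lower bound of the interval, 6.83%, is near that background. The genes counted there include ric-19, whose reads cannot be told apart from those of the transgene, so an excess over the background in that list is uncertain. Of 25 autosomal pan-neuronal genes, 5 had a nearest end in the neuronal list (interval 6.83% to 40.7%), ric-19, unc-26 (synaptojanin, fold 14.1), snn-1 (synapsin, 13.5), unc-76 (axon growth, 11.4) and elks-1 (active zone, 8.05). The total list had 8 (interval 14.9% to 53.5%), the same 5, with unc-26 at fold 17.5, and egl-3 (neuropeptide processing, 8.49), maco-1 (7.89) and snb-1 (synaptobrevin, 6.55). Markers of other cells were counted in the same way. Body-wall muscle had 1 of 17 in the neuronal list, unc-112 (kindlin, fold 14.9), and 2 in the total list, with unc-15 (paramyosin). The germline had 0 of 17 in the neuronal list and 1 in the total list, syp-2 of the synaptonemal complex. Intestine (11 genes), hypodermis (8 genes) and pharynx (9 genes) had 0 in both. The exact upper bounds, 28.5% for intestine, 36.9% for hypodermis and 33.6% for pharynx, include the background of each list. The intervals of body-wall muscle and germline include it too, so these small sets do not differ clearly from all genes. The names of the lists therefore follow the labels alone.

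Transfer RNA genes were seldom at the summit of these peaks and more often at that of peaks inside protein-coding genes. The summit lay in a transfer RNA gene for 13 in the neuronal list (1.34%) and 13 in the total list (1.12%), against 36 of the peaks inside genes in the neuronal list (6.75%) and 35 in the total list (5.69%). Of the 14 transfer RNA genes concerned, 12 were in both lists. The highest was ZK822.t1 (fold 16.998 in the neuronal list and 17.7 in the total list), next to srlf-32. For small nucleolar RNA genes the shares in the 2 positions were close. They held 7 summits in the neuronal list (0.721%) and 6 in the total list (0.515%), against 0.750% of the peaks inside genes in the neuronal list and 0.488% in the total list. The fold was highest at Y53F4B.47 (20.3 in the neuronal list and 21.2 in the total list), 100 bp from Y53F4B.12. Small nuclear RNA genes held 4 summits in each list (0.412% in the neuronal list and 0.343% in the total list). Of the fewer peaks inside genes they also held 4 in each list (0.750% in the neuronal list and 0.650% in the total list). The intervals of these shares overlap. Genes listed only as non-coding RNA, 5242 on the autosomes against 336 transfer RNA genes, held more summits than these types. They held 90 in the neuronal list (9.27%) and 98 in the total list (8.41%). Of the peaks inside genes they held 12.2% in the neuronal list and 10.9% in the total list. MicroRNA and piRNA genes held 0 of 971 in the neuronal list and 0 of 1165 in the total list. By the limit of 3 counts this allows shares of up to 0.309% in the neuronal list and 0.258% in the total list, and the exact upper bounds are 0.379% in the neuronal list and 0.316% in the total list. Transfer and small nuclear RNA genes exist in many like copies, so reads at them may have been placed on the wrong copy.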

How the data were processed

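The submitters' processing notes name build ce11 and the tools MACS2, Bowtie2 2.2.6, cutadapt 1.9.1, Picard, SAMtools 1.7 and bedtools 2.26, with no settings. No source used here gives the Tn5 shift, the removal of duplicates or the way samples were combined. From each group the authors deposited a single narrowPeak list, named for an irreproducible discovery rate of 0.1. For each peak it gives the deposited fold (a ratio to local background), the deposited −log10 p-value, a deposited score (415 to 1000) and the summit. Fold and p-value were used within a list, and depth per sample is unknown.

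Gene positions came from a RefSeq table of WBcel235, the same sequence as ce11, with 17241 autosomal protein-coding genes and no strand. Distances are from the summit to the nearest gene base. Peaks were shared if they overlapped by at least 1 bp. Gene classes (32) and marker lists (6) follow symbols, and chemoreceptors are symbols in sr and str without srp-, srf-, src- and srl-. Pileup and background were recovered, after seeing the data, from fold and p-value under default MACS2 formulas with a pseudocount of 1. Pileups came out whole within 0.02 in 99.8% of neuronal-list peaks and 99.9% of total-list peaks. The recovery step was run on data made with these same formulas, where 300 of 300 pileups were found. That run covers the calculation only. Whether the authors' settings follow these formulas was not tested by it. Named genes are the highest, lowest, widest, narrowest and edge members by rule, besides class members, some chosen after their values were seen. The members and lists were chosen with earlier results of these data known. Python 3.11.15, numpy 2.4.6, pandas 2.3.3, scipy 1.17.1 and matplotlib 3.10.9 were used.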

Additional observations from a re-analysis of the deposited data

How the results depend on the processing

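Of 130 alternative values for 94 results, 97 stayed within the counting error or within 1.5 times the count, and 33 did not. Shares of genes by class or marker list, with all genes, made up 78 of these values, and 64 of the 78 stayed. Small classes have wide intervals, up to 0.631% to 80.6% for the 4 AMP-activated kinase genes, so staying within them says little. In the neuronal list the share of autosomal peaks just outside ends was 42.9% with a window of 500 bp, 62.4% with 2000 bp and 46.7% by the midpoint of the peak, and 223 peaks (12.1%) lay wholly outside genes. For the total list it was 44.5% with 500 bp, 63.5% with 2000 bp and 48.5% by the midpoint, and 237 peaks (10.9%) lay wholly outside genes. In the 50% of peaks with stronger p-values the median fold was 12.6 and the median width 854 bp in the neuronal list, and 12.9 and 916.5 bp in the total list. With a score of 540 or more the median fold of the total list was 10.3. With equal numbers of peaks 91.7% were shared in the neuronal list and 89.4% in the total list. With both ends within 500 bp, 323 sites lay between close genes in the neuronal list and 413 in the total list. Counting any end within 1000 bp gave, in the neuronal list, 8.57% of all genes, 63.2% of ribosomal, 37.5% of heat shock, 34.4% of oxidative phosphorylation, 30.4% of ubiquitin and 2.04% of chemoreceptor genes. For the total list it gave 10.4% of all genes, 69.7% of ribosomal, 46.9% of oxidative phosphorylation, 37.5% of heat shock, 31.03% of traffic GTPase, 29.1% of splicing, 28.9% of translation factor and 2.04% of chemoreceptor genes. By construction, each of these alternatives changes which peaks, ends or genes are counted. No paired analysis was possible because the lists hold no value per replicate, and leaving out replicates was not run for the same reason. Strand and motif alternatives were not run.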
